A study of Mus musculus with 8 samples.

Results

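Genes of plasma proteins and enzymes that are made mainly in the liver were examined in RNA of the lumbar dorsal horn, where sensory fibres from skin and deeper tissue end in the spinal cord. The group has 35 genes out of 49585 gene rows measured, each found by its GENCODE M21 symbol. It was put together because the knock-out libraries held more of these transcripts, so the difference between genotypes is described here and carries no test. RNA came from lumbar segments 4 to 6 of adult C57BL/6J mice, in 8 polyA RNA-seq libraries. Of these, 4 were wild type and 4 were miR-96 knock-out. MiR-96 is a microRNA known from sensory cells of the inner ear and from sensory neurons. No other allele or treatment is named for either genotype. The labels do not say how the knock-out was made, the sex or exact age of the mice, or whether each library came from a separate animal, so the spread between replicates may in part be technical.

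The liver parenchymal cell, the hepatocyte, secretes most proteins of blood plasma: albumin, apolipoproteins, clotting factors and their inhibitors. Transcription of these genes in the hepatocyte depends on factors of the HNF1, HNF4 and C/EBP families, and a subset, the acute-phase genes, is raised by inflammatory cytokines. Neural tissue takes up many of these proteins from blood or cerebrospinal fluid rather than making them, although Ttr is also made in the choroid plexus and Rbp4 in the meninges.

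Levels are FPKM, fragments scaled to the length of the transcript and to the mapped fragments of the library. Summed FPKM ran from 575008 to 665648 and genes above 0 from 24091 to 25560 per library, and the depth estimated from the steps of low FPKM values ran from 31650000 to 42850000 fragments. Wild type replicate 1 had the highest summed FPKM and by far the most haemoglobin RNA, and wild type replicates 3 and 4 had next to no albumin RNA. All 15 markers of dorsal horn neurons, the labelled tissue, were measured, at a summed level of 1812 to 2371 FPKM. Of these 15, 0 were higher and 2 were lower in knock-out without overlap (Slc32a1 and Gal). Both separations were narrow. Slc32a1 was at 81.9 FPKM or more in wild type and at most at 81.4 in knock-out. Gal was at 9.87 or more and at most at 9.8. Of the 31319 rows above 0 in any library, 1.75% were higher without overlap. The share of all rows lower without overlap was not counted, so nothing is read from either count. Limma called 0 of the 15, with 2 at unadjusted p under 0.05, both lower (Npy and Gal), and the median log2(FPKM + 1) difference was -0.16. In bulk tissue, fewer cells of a type and less RNA per cell cannot be told apart.

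Values are listed for replicates 1, 2, 3 and 4 of each genotype in turn. Summed over the 35 genes, the level was 43.7, 37.6, 24.8 and 17.7 FPKM in wild type and 73.9, 95.5, 130.9 and 120.0 in knock-out, so the groups did not overlap. The mean was higher in knock-out for 35 of 35 genes, with a median ratio of the means of 5.88. Every knock-out library lay above every wild-type library for 21 genes, while the groups overlapped for the other 14. Without knock-out replicate 1 the count was 33, without wild type replicate 1 it was 25, and without wild type replicate 2 it was 25. Over all 31319 rows with a value above 0 in any library, 1.75% had that separation with higher values in knock-out. Because the genes were chosen on this contrast, nothing is read from the comparison of their count with that share. The counts given below by role are parts of the same count, and roles are not compared by them. Limma called 0 of 15061 genes with a mean of at least 1 FPKM at an adjusted p under 0.05, which is 0.0%, and 831 of them had an unadjusted p under 0.05. Of the 35 genes, 20 had a mean of at least 1 FPKM and 15 did not.

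**Figure D1:**
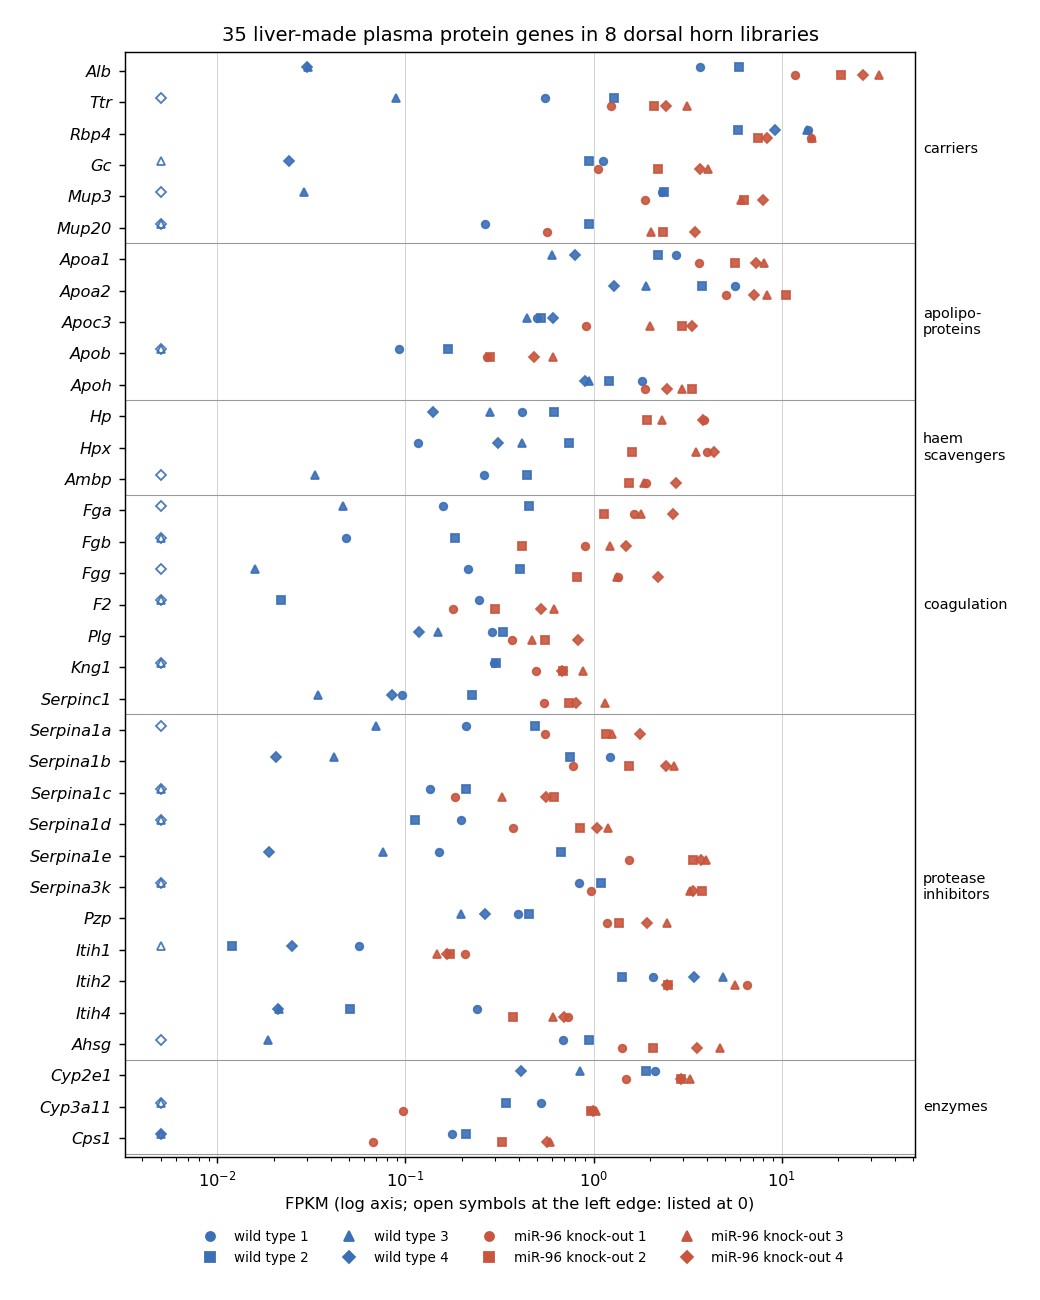
FPKM (log axis) of each of the 35 genes in the 8 libraries, grouped by role. Wild-type libraries are blue, knock-out libraries red, the symbol shape gives the replicate, and open symbols at the left edge are libraries listed at 0. Wild type replicates 3 and 4 sit at the far left for most genes, and in 21 genes all red symbols lie to the right of all blue ones.

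The wild-type libraries differed among themselves. Replicates 1 and 2 had a value above 0 for 35 of 35 genes, whereas replicate 3 was listed at 0 for 12 and replicate 4 for 16. Levels under 0.1 FPKM were found for 4 genes in replicate 1 and 3 in replicate 2, against 24 in replicate 3 and 24 in replicate 4. Both replicates 1 and 2 were above both replicates 3 and 4 in 30 of 35 genes. In knock-out no library was listed at 0 for any of them, and the 2 values under 0.1 FPKM were both in replicate 1 (Cyp3a11 and Cps1). Knock-out replicate 1 was the lowest of its genotype for 25 genes, and replicate 3 was the highest of all libraries for 17. On the log2(FPKM + 1) scale the median over the genes was 0.37, 0.61, 0.05 and 0.03 in wild type and 1.04, 1.35, 1.60 and 1.80 in knock-out. The median difference, knock-out minus wild type, was 0.95 on that scale, with a range from 0.07 (Rbp4) to 3.23 (Alb). Over all genes tested the median difference was 0.0137.

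Promoter sequences are shown for the 4 genes that hold the longer HNF1 letters searched, and for Serpina1e as 1 of the paralogs with the shorter form. RefSeq windows of 300 bases (GRCm38.p6, 250 bases before the transcription start and 50 from it on) were matched for 27 of the 35 genes, in 29 windows. The HNF1 letters GTTAATNAT, searched on both strands, were in 4 of these 27 genes (14.8%: Alb, Fga, Gc and Pzp), against 0.94% of all 27025 genes in the table. The shorter GTTAAT, which is part of the first string, was in 12 of 27 (44.4%), the 5 Serpina1 paralogs among them, against 8.24%. The loose C/EBP letters TTNNGCAA were in 14 of 27 (51.9%, Rbp4 and Itih2 among them) against 12.2%, and the stricter TTGCGCAA in 0 of 27 against 0.207%. The HNF4 letters CAAAGTCCA were in 1 gene (3.7%, Cyp3a11) against 0.555%, and the TATA letters TATAAA in 6 (22.2%) against 15.7%. Counted with the start base as 0, the HNF1 letters of Alb lay at -32 to -24 and its loose C/EBP letters at -94 to -87. The HNF1 letters lay at -52 to -44 in Gc, at -46 to -38 in Fga and farther off in Pzp, at -202 to -194. A match of letters is a description of the sequence and not a measured binding site. The windows of these 4 genes and of Serpina1e follow, 5′ to 3′ on the strand of the gene, with capitals marking GTTAAT, GTTAATNAT or TTNNGCAA on either strand. Alb lies at chr5:90460620-90460919 (plus strand), Fga at chr3:83025903-83026202 (plus), Gc at chr5:89457849-89458148 (minus), Pzp at chr6:128526671-128526970 (minus) and Serpina1e at chr12:103956848-103957147 (minus).
Alb: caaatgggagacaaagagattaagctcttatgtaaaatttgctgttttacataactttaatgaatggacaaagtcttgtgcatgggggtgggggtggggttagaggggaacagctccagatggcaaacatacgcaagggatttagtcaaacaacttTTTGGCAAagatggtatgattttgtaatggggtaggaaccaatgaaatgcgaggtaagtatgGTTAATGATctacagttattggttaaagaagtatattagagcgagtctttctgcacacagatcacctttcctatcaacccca
Fga: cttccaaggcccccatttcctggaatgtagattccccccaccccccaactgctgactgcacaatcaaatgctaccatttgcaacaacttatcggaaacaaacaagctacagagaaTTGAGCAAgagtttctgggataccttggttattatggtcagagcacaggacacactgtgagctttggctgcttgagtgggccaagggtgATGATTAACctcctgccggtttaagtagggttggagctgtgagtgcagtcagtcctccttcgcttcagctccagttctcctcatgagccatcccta
Gc: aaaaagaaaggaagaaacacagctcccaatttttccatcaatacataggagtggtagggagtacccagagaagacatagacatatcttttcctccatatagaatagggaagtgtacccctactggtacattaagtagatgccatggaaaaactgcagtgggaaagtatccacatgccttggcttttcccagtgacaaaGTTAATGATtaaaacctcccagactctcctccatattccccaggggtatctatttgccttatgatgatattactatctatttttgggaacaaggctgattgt
Pzp: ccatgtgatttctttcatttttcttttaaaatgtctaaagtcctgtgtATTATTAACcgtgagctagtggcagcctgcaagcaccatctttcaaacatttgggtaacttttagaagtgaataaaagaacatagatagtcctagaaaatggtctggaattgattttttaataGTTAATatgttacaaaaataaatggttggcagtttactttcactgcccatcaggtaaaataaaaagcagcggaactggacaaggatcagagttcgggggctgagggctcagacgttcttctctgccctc
Serpina1e: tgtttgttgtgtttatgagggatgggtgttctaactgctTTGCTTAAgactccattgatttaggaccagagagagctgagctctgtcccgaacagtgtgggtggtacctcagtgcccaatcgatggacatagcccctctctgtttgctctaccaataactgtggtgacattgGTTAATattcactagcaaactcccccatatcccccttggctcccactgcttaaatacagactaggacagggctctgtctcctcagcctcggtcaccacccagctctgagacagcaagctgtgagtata

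Among the carrier proteins, albumin had the largest difference between genotypes. Alb (chromosome 5, 90460897 to 90476602, GRCm38, plus strand) encodes serum albumin, the main protein of plasma. It was at 3.69, 5.94, 0.0303 and 0.0301 FPKM in wild type and at 11.7, 20.7, 33.0 and 27.1 FPKM in knock-out. The lowest knock-out library was thus 1.97 times the highest wild-type library, and wild type replicates 3 and 4 held next to none. With the longest transcript and the estimated depth, those levels stand for about 2.1 fragments in each of these libraries, against 230.4 and 442.3 in wild type replicates 1 and 2 and 909.7 to 2595.4 in knock-out. The means were 2.42 ± 2.91 and 23.1 ± 9.11 FPKM (SD, n = 4), a log2(FPKM + 1) difference of 3.23 (SE 0.78, from the spread within genotypes). Its promoter, shown above, holds both HNF1 and loose C/EBP letters.

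The other carriers overlapped between genotypes. Gc, the vitamin D binding protein, was at 1.12, 0.946, 0 and 0.0241 FPKM in wild type and 1.06, 2.21, 4.06 and 3.67 in knock-out. Knock-out replicate 1 lay just under wild type replicate 1, and the other knock-out libraries lay above all wild-type ones. Ttr, transthyretin, which carries thyroid hormone and retinol binding protein, was at 0.554, 1.28, 0.0893 and 0 FPKM and at 1.24, 2.09, 3.15 and 2.43, where again only knock-out replicate 1 fell within the wild-type range. Mup3 and Mup20 encode major urinary proteins, lipocalins that bind pheromones and are secreted by mouse liver. Mup3 was at 2.30, 2.38, 0.0288 and 0 FPKM against 1.87, 6.30, 6.08 and 7.98 in knock-out. Mup20, known to be higher in males, was at 0.265, 0.949, 0 and 0 against 0.562, 2.34, 2.03 and 3.45. Of Mup20's transcript, 38.8% of 100-nt windows also occur in the pseudogene Mup-ps19, so its level is uncertain, while for Mup3 the shared part was 2.94%. In both Mup genes knock-out replicate 1 was the lowest of its genotype and lay below wild type replicate 2.

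Rbp4, the carrier of retinol, did not follow the rest. It was at 13.8, 5.86, 13.7 and 9.22 FPKM in wild type and 14.3, 7.45, 14.4 and 8.34 in knock-out, with means of 10.6 ± 3.83 and 11.1 ± 3.75 (SD, n = 4). The log2(FPKM + 1) difference of 0.07 was smaller than its SE of 0.35, and it turned to -0.16 without wild type replicate 2, and to -0.06 without knock-out replicate 1 or replicate 3. Itih2, a heavy chain of inter-alpha-trypsin inhibitor, stood apart from most of the genes too, though not in the same way. Its log2(FPKM + 1) difference was 0.41 with an SE of 0.41, and its means were 2.95 and 4.29 FPKM. Its levels were 2.08, 1.42, 4.89 and 3.41 FPKM in wild type and 6.53, 2.48, 5.66 and 2.47 in knock-out. Both genes were present in every library, in wild type replicates 3 and 4 too. The meningeal marker Igf2, an insulin-like growth factor, was at 37.8, 15.9, 44.6 and 26.0 FPKM and at 68.8, 19.4, 46.1 and 20.4. Slc6a13, a GABA transporter of the meninges, was at 10.9, 5.67, 12.5 and 6.63 FPKM and at 14.8, 6.51, 12.9 and 6.25. Over the 10 meningeal markers the summed level ran from 98.0 to 147.5 FPKM in wild type and from 99.6 to 231.9 in knock-out, with the highest value in knock-out replicate 1. Their part in the levels of Rbp4 and Itih2 was not tested. Without Rbp4 and Itih2, the sum of the other 33 genes was 27.8, 30.4, 6.29 and 5.06 FPKM in wild type and 53.0, 85.6, 110.8 and 109.2 in knock-out.

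**Figure D2:**
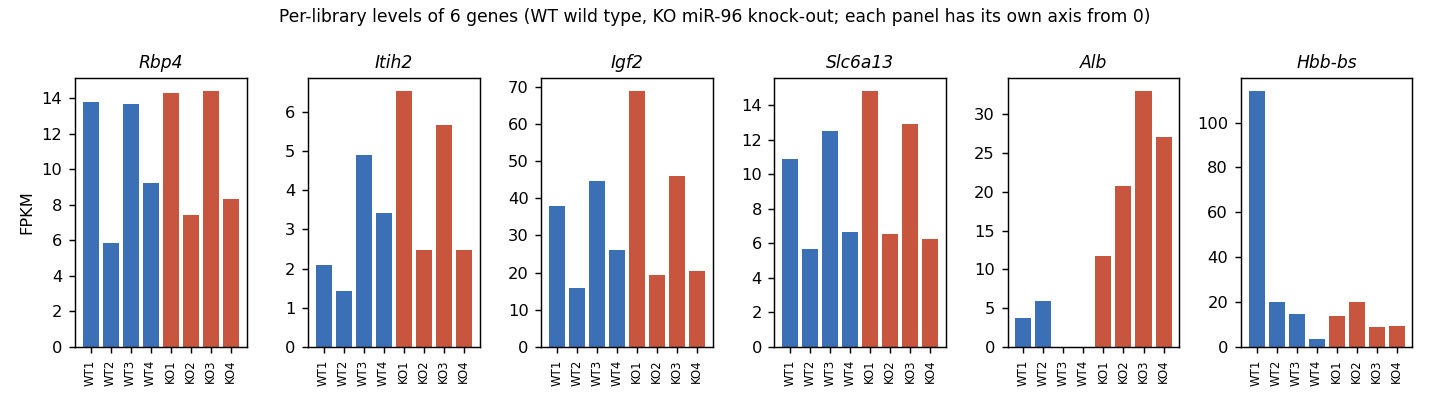
FPKM per library (linear axes from 0, each panel on its own scale) of Rbp4, Itih2, the meningeal markers Igf2 and Slc6a13, Alb, and the haemoglobin gene Hbb-bs, with wild type in blue and knock-out in red. Rbp4 and Itih2 stand high in wild type replicate 3, where Alb is at 0.0303, and Hbb-bs is highest in wild type replicate 1 at 114.0. Slc6a13 was picked after its values were seen, and other meningeal markers, such as Ogn, had another order.

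Apolipoproteins were higher in knock-out, and 4 of the 5 had groups that did not overlap, against 1.75% of all rows above 0 in any library. Apoa1, the main protein of high-density lipoprotein (chromosome 9, 46228580 to 46230466, plus strand), was at 2.74, 2.21, 0.598 and 0.794 FPKM in wild type and 3.64, 5.61, 8.07 and 7.33 in knock-out. Its neighbour Apoc3, an inhibitor of lipoprotein lipase (46232933 to 46235636, minus strand), was at 0.499, 0.527, 0.443 and 0.606 FPKM and at 0.909, 2.96, 1.99 and 3.35. The wild-type libraries of Apoc3 were close together, with an SD of 0.0678, unlike those of most other genes. Apoa2, the second protein of high-density lipoprotein, overlapped, with 5.63, 3.79, 1.91 and 1.28 FPKM in wild type and 5.07, 10.5, 8.38 and 7.14 in knock-out. Apob, the structural protein of low-density lipoprotein, was low throughout, at 0.0923, 0.169, 0 and 0 FPKM against 0.27, 0.28, 0.605 and 0.483. Apoh, beta-2-glycoprotein I, was at 1.80, 1.21, 0.94 and 0.895 FPKM against 1.87, 3.35, 2.94 and 2.47, so its lowest knock-out library was 1.04 times its highest wild-type library. Apoh overlaps Prkca on the opposite strand, a kinase gene at 22.7 to 38.5 FPKM, and no source used here says whether counting used strand.

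All 3 scavengers of haem and haemoglobin were higher in knock-out without overlap, as were 1.75% of all rows above 0 in any library. Hp, haptoglobin, which binds free haemoglobin (chromosome 8, 109575128 to 109579172, minus strand), was at 0.414, 0.617, 0.282 and 0.140 FPKM in wild type and at 3.86, 1.93, 2.31 and 3.83 in knock-out. Hpx, hemopexin, which binds free haem (chromosome 7, 105591613 to 105600137, minus strand), was at 0.117, 0.743, 0.416 and 0.311 and at 3.99, 1.60, 3.49 and 4.35. Ambp, the precursor of alpha-1-microglobulin and bikunin (chromosome 4, 63143275 to 63154799, minus strand), was at 0.261, 0.441, 0.0331 and 0 and at 1.90, 1.55, 1.85 and 2.73. The lowest knock-out library was 3.12 (Hp), 2.16 (Hpx) and 3.51 (Ambp) times the highest wild-type library. In contrast to albumin, the lowest knock-out library of all 3 was replicate 2 and not replicate 1. Their log2(FPKM + 1) differences were 1.52 (SE 0.22), 1.61 (SE 0.27) and 1.35 (SE 0.17). Hp and Hpx had a value of at least 0.1 FPKM in all 8 libraries, including the wild-type ones with next to no Alb.

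Haemoglobin itself did not follow these scavengers. Hbb-bs, a beta-globin gene and a marker of red blood cells, was at 114.0, 20.2, 14.7 and 3.65 FPKM in wild type and at 13.7, 20.1, 8.73 and 9.24 in knock-out. Over the 10 blood markers, which include neutrophil genes, the sum was 214.3, 70.7, 32.5 and 6.90 FPKM and 28.9, 70.5, 24.1 and 20.4. The libraries with most blood markers were wild type replicate 1, wild type replicate 2 and knock-out replicate 2, and 0 of the 10 markers had all knock-out libraries above wild type. That separation was found for 1.75% of all rows above 0 in any library, so nothing is read from this count.

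In the coagulation group 6 of 7 genes had groups that did not overlap, against 1.75% of all rows above 0 in any library. These genes were chosen for higher knock-out values, so the count is no result about their role. The 3 fibrinogen chain genes, which make the protein of the fibrin clot, lie together on chromosome 3. Fga (83026076 to 83033627, plus strand) was at 0.158, 0.455, 0.0466 and 0 FPKM in wild type and 1.64, 1.14, 1.78 and 2.63 in knock-out. Fgb (83040141 to 83049863, minus strand) was at 0.0483, 0.184, 0 and 0 and at 0.90, 0.415, 1.22 and 1.48. Fgg (83007724 to 83015049, plus strand) was at 0.214, 0.407, 0.0158 and 0 and at 1.35, 0.813, 1.33 and 2.21. The 3 chains shared their extremes: replicate 2 highest and replicate 4 at 0 in wild type, and replicate 4 highest and replicate 2 lowest in knock-out. For Fgb, whose ratio of means was 17.3 and the highest of the 35 genes, the estimated fragments were 5.9, 26.9, 0.0 and 0.0 in wild type and 137.5, 50.5, 188.9 and 169.1 in knock-out. The wild-type mean of Fgb therefore rested on 2 libraries.

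The remaining 4 genes were an inhibitor and precursors of the cascade and of fibrin breakdown. Serpinc1, antithrombin, was at 0.096, 0.227, 0.0341 and 0.0847 FPKM in wild type and 0.544, 0.737, 1.15 and 0.804 in knock-out. It overlaps Zbtb37 on the opposite strand, at 1.35 to 5.13 FPKM. Kng1, kininogen, the source of bradykinin, was at 0.296, 0.304, 0 and 0 and at 0.497, 0.685, 0.878 and 0.682. Plg, plasminogen, the precursor of the enzyme that dissolves fibrin, was detected in every library, at 0.29, 0.329, 0.148 and 0.118 and at 0.37, 0.552, 0.471 and 0.826. F2, prothrombin, overlapped, with 0.246, 0.0218, 0 and 0 FPKM in wild type and 0.178, 0.30, 0.619 and 0.527 in knock-out. Its wild-type value came almost wholly from replicate 1.

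**Figure D3:**
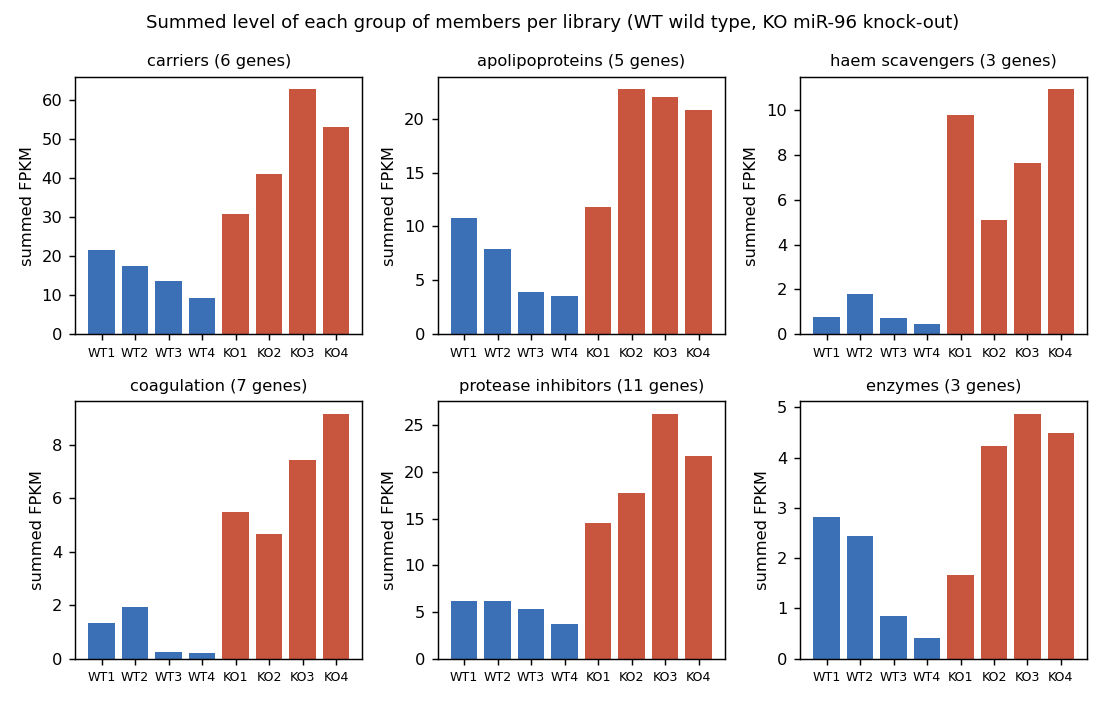
Summed FPKM of each of the 6 role groups in each library (bars from 0, 1 bar per library, wild type blue, knock-out red). The haem scavengers and coagulation genes are lowest in knock-out replicate 2 among knock-out libraries, while carriers, apolipoproteins, protease inhibitors and enzymes are lowest in replicate 1.

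The protease inhibitors were the largest role, with 11 genes, 7 of them without overlap. That separation was found for 1.75% of all rows above 0 in any library, and these genes too were chosen for higher knock-out values. The 5 Serpina1 paralogs encode mouse forms of alpha-1-antitrypsin and lie between 103728156 and 103958975 on chromosome 12, all on the minus strand. Summed, they were at 1.91, 2.22, 0.187 and 0.0395 FPKM in wild type and 3.43, 7.53, 9.40 and 9.55 in knock-out. Serpina1e stood at 0.15, 0.668, 0.0759 and 0.0189 FPKM against 1.54, 3.37, 3.94 and 3.74, a ratio of means of 13.8 and a log2(FPKM + 1) difference of 1.74 (SE 0.28). Serpina1b overlapped between genotypes, with 1.22, 0.75, 0.0415 and 0.0206 against 0.776, 1.54, 2.69 and 2.44. The annotated span of Serpina1b, 103728156 to 103830373, holds Serpina1d on the same strand. The ratio of Serpina1e to Serpina1b was 0.123, 0.891, 1.83 and 0.915 in wild type and 1.99, 2.20, 1.47 and 1.54 in knock-out, so the groups overlapped, and in wild type replicates 3 and 4 both genes were under 0.1 FPKM. Serpina1a (ratio of means 6.19) and Serpina1d (11.2) did not overlap between genotypes, while Serpina1c (4.87) did. These paralogs share sequence: 14.8% of the 100-nt windows of Serpina1e, 20.6% of Serpina1b, 29.3% of Serpina1d, 49.9% of Serpina1a and 58.5% of Serpina1c also occur in another gene. No source used here says how counting divided reads among them, so single paralogs are less certain than their sum.

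The remaining inhibitors were as varied. Pzp, a broad protease inhibitor of the alpha-2-macroglobulin family (chromosome 6, 128483567 to 128526720, minus strand), was at 0.396, 0.455, 0.197 and 0.266 FPKM in wild type and 1.18, 1.36, 2.46 and 1.92 in knock-out. It overlaps the antisense gene Gm10069, at 0.314 to 1.16 FPKM. Ahsg, fetuin-A, an inhibitor of calcification, was at 0.687, 0.949, 0.0185 and 0 against 1.42, 2.06, 4.70 and 3.56. Neither Pzp nor Ahsg overlapped between genotypes. Serpina3k, which inhibits kallikrein, was at 0.836, 1.10, 0 and 0 against 0.966, 3.76, 3.25 and 3.38, with knock-out replicate 1 inside the wild-type range. Itih4, a plasma protein of the inter-alpha-trypsin inhibitor family, was at 0.239, 0.0504, 0.0212 and 0.0211 against 0.735, 0.374, 0.609 and 0.692. Itih1 was among the lowest of the genes, at 0.0566, 0.0119, 0 and 0.025 against 0.206, 0.172, 0.147 and 0.167, with its knock-out libraries close together. The related Itih3, which is not one of the 35 genes, was at 87.0, 110.8, 99.3 and 88.7 FPKM in wild type and 92.0, 87.8, 82.5 and 77.4 in knock-out. The family thus differed in level, and the groups of Itih3 overlapped.

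All 3 intracellular liver enzymes overlapped, and nothing is read from so small a count. Cyp2e1, a cytochrome P450 that oxidises ethanol and small solvents, was at 2.11, 1.89, 0.85 and 0.412 FPKM in wild type and 1.49, 2.93, 3.25 and 2.93 in knock-out. Cyp3a11, a cytochrome P450 of drug and bile acid metabolism, was at 0.525, 0.342, 0 and 0 against 0.0966, 0.965, 1.03 and 0.987. Cps1, the first enzyme of the urea cycle, was at 0.177, 0.21, 0 and 0.00488 against 0.0671, 0.324, 0.586 and 0.564. In each of the 3, knock-out replicate 1 lay below wild type replicates 1 and 2 and the other knock-out libraries lay above all of wild type. The estimated fragments of Cps1 were 32.3, 45.6, 0.0 and 1.0 in wild type and 15.2, 58.4, 134.5 and 95.6 in knock-out.

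The make-up of the group relative to albumin was compared within libraries, for the 6 with more than a few fragments of Alb. Apoa1 was at 31.1%, 27.0%, 24.5% and 27.0% of Alb in the knock-out libraries, and at 74.2% and 37.3% in wild type replicates 1 and 2. Ttr was at 10.6%, 10.1%, 9.55% and 8.98% of Alb in knock-out, against 15.0% and 21.5%. Both thus kept a narrow range to albumin over the knock-out libraries. Hp, at 33.0%, 9.30%, 6.99% and 14.1% of Alb, was highest in knock-out replicate 1. Hpx, at 34.1%, 7.72%, 10.6% and 16.0%, and the summed fibrinogen chains, at 33.1%, 11.4%, 13.1% and 23.3%, had replicate 1 highest too. In wild type replicates 1 and 2, Hp was at 11.2% and 10.4%, Hpx at 3.18% and 12.5% and fibrinogen at 11.4% and 17.6%. Hp, Hpx and fibrinogen are acute-phase genes, but this order was not confined to them. Itih1, Itih2 and Itih4 were also highest in knock-out replicate 1, at 0.206, 6.53 and 0.735 FPKM. Alb was lowest of its genotype there, at 11.7 FPKM, so replicate 1 was highest relative to Alb for these genes too. Mup3, at 15.9%, 30.4%, 18.4% and 29.4%, Mup20, at 4.80%, 11.3%, 6.15% and 12.7%, and Cyp3a11, at 0.824%, 4.65%, 3.11% and 3.64%, had replicate 1 lowest instead. In wild type replicates 1 and 2, Cyp3a11 was at 14.2% and 5.77% and Cyp2e1 at 57.3% and 31.8%, above the 9.86% to 14.1% of Cyp2e1 in knock-out. These ratios are values of single libraries and were not tested.

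**Figure D4:**
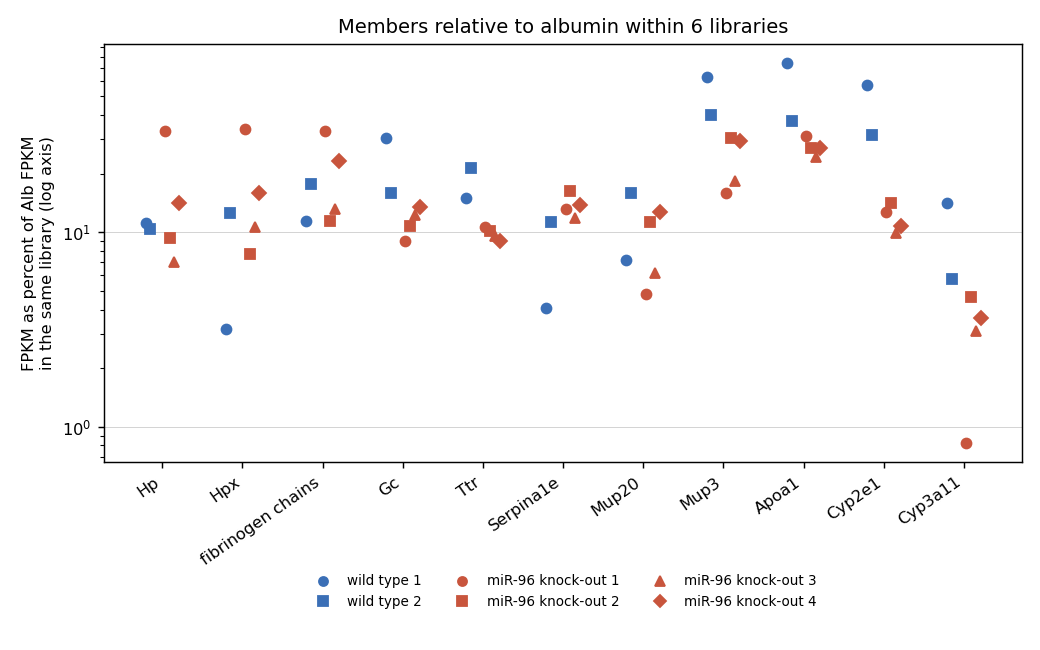
FPKM of 10 genes and of the 3 summed fibrinogen chains as percent of Alb FPKM in the same library (log axis), for wild type replicates 1 and 2 (blue) and knock-out replicates 1 to 4 (red). Knock-out replicate 1 (red circle) is highest of the knock-out libraries for Hp, Hpx and fibrinogen, near 33% to 34%, and lowest for Mup3, Mup20 and Cyp3a11.

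The order of the 35 genes by level was alike in the knock-out libraries. Across the genes, Pearson's r of log2(FPKM + 0.01) was 0.94 to 0.95 among knock-out replicates 2, 3 and 4, and 0.79 to 0.86 between each of these and replicate 1. Wild type replicate 2 had r of 0.93, 0.91 and 0.90 with knock-out replicates 2, 3 and 4, and wild type replicate 1 had 0.82, 0.79 and 0.71. Wild type replicates 3 and 4 were alike to each other (0.92), and replicate 4 was least like knock-out replicate 4 (0.37). These r describe 35 genes that are not independent, over libraries measured in the same way, and many of the wild-type values are at or near 0. At 0.1 FPKM or more in all 8 libraries were 11 genes: Rbp4, Itih2, Apoa1, Apoa2, Apoc3, Apoh, Cyp2e1, Hp, Hpx, Pzp and Plg.

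Liver genes outside the group were read from lists of 61 plasma proteins and 44 metabolic genes, 105 in all, of which 104 had a row and 102 a value above 0 in any library. Every knock-out library lay above every wild-type library for 25 of them, and for 0 the reverse held, with a higher mean in knock-out for 96. Over the 31319 rows with a value above 0 in any library, 1.75% had that separation with higher values in knock-out. The share for the reverse was not counted. The lists were written with earlier results known, so nothing is read from that comparison. The median log2(FPKM + 1) difference of the listed genes was 0.18. Of these genes only 15 had a mean of at least 1 FPKM. Limma called 0 of these 15, with 3 at unadjusted p under 0.05, all higher in knock-out. That mean is over all 8 libraries. Mup7, Fabp1 and Saa2, with wild-type means of 0.702, 0.452 and 0.212 FPKM, thus passed only through their knock-out values. The 25 were low. Orm1, orosomucoid, an acute-phase plasma protein, had the highest mean of them, with 0, 0.0669, 0 and 0.0699 FPKM in wild type and 1.48, 0.561, 1.45 and 1.36 in knock-out. Its relative Orm2 was at 0, 0, 0.0703 and 0 against 0.481, 0.160, 0.0948 and 0.723. Apcs, serum amyloid P, and Serpina6, which carries corticosteroids, were listed at 0 in all 4 wild-type libraries. In knock-out, Apcs was at 0.179, 0.032, 0.277 and 0.611 FPKM.

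Other plasma protein genes of the 25 were Mup11, Apoa5 and Apof among carriers and apolipoproteins, Serpina3m and Serpinf2 among serpins, and Proc and Hrg, which act in clotting. Cpn1 and Cpn2 encode the subunits of carboxypeptidase N, Hc and C8a complement components C5 and C8 alpha, and Cfhr2 a protein related to complement factor H. Fetub, Azgp1 and Hamp, the iron hormone hepcidin, were the others. Hamp was at 0.449, 0.316, 0 and 0 FPKM against 0.485, 0.681, 0.597 and 0.643, with wild type replicates 1 and 2 close under knock-out. The 6 metabolic genes were Pck1 and Fbp1 of gluconeogenesis, Mat1a of methionine metabolism, Hgd of tyrosine breakdown, the organic anion transporter Slco1b2 and the glucuronosyltransferase Ugt2b5. Pck1 was at 0.134, 0.212, 0.0891 and 0.0295 FPKM against 0.515, 0.592, 0.521 and 0.611. Listed genes of highest mean overlapped between genotypes. Itih3, whose values are given above, had the highest, with a log2(FPKM + 1) difference of -0.18. Vtn, vitronectin, was at 50.8 to 79.5 FPKM in wild type and 50.8 to 86.4 in knock-out, and Fah, an enzyme of tyrosine breakdown, at 45.4 to 82.3 and 46.9 to 55.4. The count of 25 became 39 without wild type replicate 1, 40 without wild type replicate 2 and 51 without knock-out replicate 1.

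**Figure D5:**
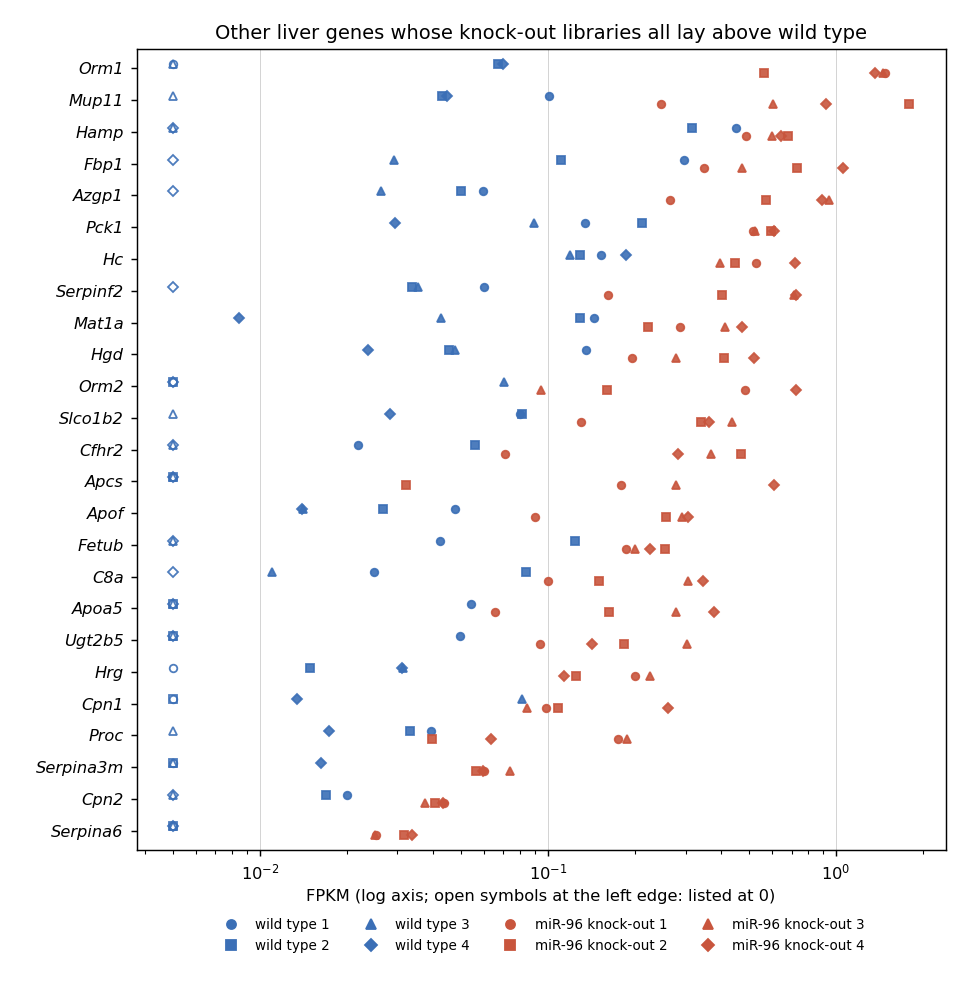
FPKM (log axis) in each library of the 25 liver genes outside the group whose knock-out libraries (red) all lay above the wild-type libraries (blue), with symbol shapes for replicates and open symbols at the left edge for libraries listed at 0. The 25 were picked for this separation, and Orm1 lies at the top with knock-out values from 0.561 to 1.48.

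Regulators and zonal markers of the hepatocyte were read next. Over the 31319 rows above 0 in any library, 1.75% were higher in knock-out without overlap. Nothing is read from the counts of these short lists beside that share. Of 11 transcription factors of the liver, 0 had groups that did not overlap. Hnf4a, which drives much of the hepatocyte programme, was at 0.0731, 0.037, 0 and 0 FPKM in wild type and 0.071, 0.133, 0.128 and 0.188 in knock-out. Cebpa, which other cell types express too, was at 3.55 to 6.85 and 4.53 to 5.96. Among markers of the liver's periportal zone 1 of 8 did not overlap (Pck1) and among those of the pericentral zone 0 of 8. Glul, Slc1a2, Oat and Lgr5, the pericentral markers of highest mean, are expressed in the cord itself, Glul at 1872 to 2400 FPKM. Markers of other liver cells (Kupffer, endothelial and stellate cells) had 0 of 12 without overlap, and Clec4f, a marker of Kupffer cells, was above 0 only in knock-out replicate 3, at 0.0159 FPKM. Marco of the same list went the other way, at 0.134, 0.158, 0.119 and 0.0236 FPKM in wild type and 0, 0, 0.064 and 0.0574 in knock-out. Timd4 was at 0.0238 to 0.15 FPKM in wild type and 0.0143 to 0.182 in knock-out.

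Markers of other organs that make some of these proteins were read in the same way. Over the 31319 rows above 0 in any library, 1.75% were higher in knock-out without overlap. A count of 0 in lists this short is near that share, so nothing is read from it. The share for the reverse was not counted. Of 12 choroid plexus markers 0 had knock-out libraries all above wild type. Otx2 was listed at 0 in all 8 libraries, and the summed level was 9.44 to 12.7 FPKM in wild type and 10.6 to 12.6 in knock-out. Of 12 kidney markers 0 did, Umod, Slc34a1 and Kap were listed at 0 in every library, and the sums were 4.60 to 7.46 and 6.08 to 8.32. Of 14 pancreas markers 0 did, 7 were listed at 0 in every library, and the sums were 2.14 to 8.69 and 4.11 to 5.59, nearly all from Cela1. Of 12 intestine markers 0 did, Cdx1 and Cdx2 were listed at 0 in every library, and Apoa4, an apolipoprotein of intestine, was at most at 0.0405. In 1 of the 12, Sis, the reverse held, with 0.00753 to 0.0396 FPKM in wild type and all knock-out libraries listed at 0. Skeletal muscle markers had 0 of 12 higher without overlap, with sums of 98.6 to 220.1 and 100.5 to 117.7 FPKM, nearly all from Pvalb, which neurons express. In 1 of these 12, Actn3, the reverse held, at 0.926 to 1.17 FPKM in wild type and 0.53 to 0.819 in knock-out. Of 12 receptors and uptake proteins for plasma proteins, 0 had groups that did not overlap and limma called 0, with 2 at unadjusted p under 0.05. Lrp1, the most abundant of them and a receptor for protease complexes, was at 202.3 to 355.6 FPKM and 302.8 to 353.2.

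Genes outside these lists with the largest differences had another pattern across the wild-type libraries. The 10 with a mean of at least 1 FPKM, every knock-out library above wild type and the largest difference were Kantr, Klf12, Ston2, Trpm3, Tspan32os, Med12l, Ankfn1, Syn3, Tenm3 and Samd12. Predicted genes, pseudogenes and small noncoding genes were left aside. Their log2(FPKM + 1) differences ran from 0.91 to 0.57. Klf12, a transcriptional repressor, was at 0.562, 5.58, 5.65 and 3.17 FPKM in wild type and 8.09, 6.25, 6.24 and 5.97 in knock-out. Wild type replicate 1 was the lowest library for each of the 10, whereas it was among the higher wild-type libraries for most of the liver genes. The 10 were picked for low wild-type values beside knock-out, which favours genes with a very low wild-type library.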

How the data were processed

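The authors deposited FPKM per gene, 1 file per library, per the file headers with an identifier, an FPKM column and a locus. HISAT2, SAMtools and Cufflinks are listed in the submitters' processing notes, with no version or option in the sources used here. The notes name the build mm8. Against the GRCm38 annotation, the locus in the files was identical for 45128 of 49326 genes with a GENCODE M21 symbol (91.5%), so coordinates are those of GENCODE M21, numbered from 1 (the deposited locus differed for Ttr, Rbp4, Plg, Kng1, Itih4 and Ahsg).

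FPKM are not counts, so no count model was fitted. Depth was estimated from FPKM steps of genes with a single transcript of at least 3000 nt and an assumed fragment of 200 nt; within a tolerance of 0.15 fragments, 98.0% to 99.1% of these values were whole, where chance gives 30%. Limma 3.58.1 in R 4.3.3 (lmFit, eBayes with trend and robust, two-sided, Benjamini-Hochberg) was run on log2(FPKM + 1) for genes with a mean of at least 1 FPKM and tested on simulated data. Differences on this scale understate those of low genes. Other values were computed with Python 3.11.15 and pandas 2.3.3.

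The genes and lists were chosen with earlier results of these data known. Also named are up to 4 genes of highest mean from each list, other liver genes without overlap, and the 10 other genes of largest difference among those higher in knock-out without overlap. Markers listed at 0, Hnf4a, Clec4f, Marco, Timd4, Apoa4, Slc6a13, Ogn, Slc32a1, Gal, Npy, Sis, Actn3 and the genes under other observations were named after their values were seen. Alternatives were other pseudocounts, filters, scalings, library weights, a replicate block and leaving out each library. Same-numbered libraries were not paired, since their deviations correlated at only -0.11 to 0.14.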

Additional observations from a re-analysis of the deposited data

Results flagged for a closer look

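Each genotype's 4 values were checked for each of the 35 genes, 70 groups in all, for 1 library whose gap to the nearest other library exceeded the share of the range set by Dixon's 95% critical value for 4 values. Chance marks about 1 in 20 groups, and 3 were marked. F2, prothrombin, was at 0.246 FPKM in wild type replicate 1 against at most 0.0218 in the other wild-type libraries. Itih4 was at 0.239 FPKM in wild type replicate 1 against at most 0.0504. Cyp3a11 was at 0.0966 FPKM in knock-out replicate 1, under the 0.965 to 1.03 of the remaining 3.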

How the results depend on the processing

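Limma called 0 genes as reported and 1627 with estimated library weights (1012 higher in knock-out). It called between 0 and 1 when each library was left out in turn, and the 1 gene came without knock-out replicate 2. The count of the 35 genes without overlap was 21, against 10 when only genes with a mean of at least 1 FPKM were kept, since fewer genes then entered, and 21 to 33 when each library was left out, with 33 without knock-out replicate 1. The count of other liver genes without overlap was 25, against 0 with that filter and 26 to 51 with a library left out. The median log2 difference of the 35 genes was 0.95, against 2.15 with a pseudocount of 0.1, 1.28 with FPKM rescaled to 1 common total (which moved the median of genes tested to 0.0839), 1.26 with the filter and 0.84 to 1.05 with a library left out. The filter takes the mean of all 8 libraries, so genes low in wild type can pass it through their knock-out values. Hp, Hpx and Ambp did so, with wild-type means of 0.363, 0.397 and 0.184 FPKM. So did Ttr, Gc, Mup20, Apoc3, Serpina1b, Serpina1e, Serpina3k, Pzp and Ahsg, with wild-type means from 0.228 (Serpina1e) to 0.523 FPKM (Gc). The count of 10 and the 1.26 are therefore no separate support. The HNF1 letters were in 4 genes and the 6-letter form in 12. Leaving out a library gave Rbp4 differences from -0.16 to 0.23, reversed at -0.16 without wild type replicate 2, -0.06 without knock-out replicate 1 and -0.06 without replicate 3. Of the other values of single genes under these settings, 403 moved by less than the spread within genotypes and 49 by more, all 49 with the smaller pseudocount or that rescaling. The replicate number as a block left the count of calls at 0 (790 at unadjusted p under 0.05) and the median at 0.95. Most wild-type values of these genes stand for few fragments, and levels listed at 0 may lie under what this depth detects.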

Other observations

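The acute-phase genes Saa1 and Saa2, picked here after their values were seen, were highest in knock-out replicates 1 and 4. Saa1, serum amyloid A1, was at 0.342, 0.305, 0.196 and 0.301 FPKM in wild type and 2.93, 0.284, 0.993 and 2.31 in knock-out. Saa2 was at 0.233, 0.123, 0.465 and 0.0257 against 5.31, 0.324, 0.791 and 4.01. In both, knock-out replicate 2 fell within the wild-type range, and it was also the lowest knock-out library for Hp, Hpx and the fibrinogen chains. Lcn2, an acute-phase and neutrophil gene, went otherwise, with 2.29, 13.3, 1.12 and 0.614 FPKM in wild type and 1.56, 8.68, 0.952 and 0.748 in knock-out. Orm1 was lowest of its genotype in knock-out replicate 2, at 0.561 FPKM, but its relative Orm2 was lowest in replicate 3, at 0.0948. Hamp was highest in knock-out replicate 2, at 0.681 FPKM.

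Genes that differ between the sexes in liver were read as a further description. Of 12 genes known to be higher in female liver, 6 were listed at 0 in every library, and besides Cux2, which the cord expresses, none exceeded 0.0986 FPKM. Of 12 genes known to be higher in male liver, 2 (Elovl3 and Serpina1e) were higher in knock-out without overlap and 0 lower. A higher mean in knock-out was found for 10. Serpina1e and Mup20 of this list are also among the 35 genes. Those were chosen for higher values in knock-out, so this part of the counts was fixed beforehand. The share higher without overlap was 1.75% of the 31319 rows with a value above 0 in any library. Nothing is read from these counts. The summed level of the 12 was 105.2 to 116.1 FPKM in wild type and 103.3 to 114.4 in knock-out, nearly all from Susd4. Elovl3 was at 0, 0.191, 0 and 0.0181 FPKM in wild type and 0.216, 0.374, 0.344 and 0.397 in knock-out, and Cyp2d9, which overlapped, at 0.149, 0.173, 0 and 0 against 0.0602, 0.677, 0.208 and 0.419. Susd4 had a difference of -0.09 and Cyp7b1 of -0.16 on the log2(FPKM + 1) scale. The Y-linked gene Ddx3y was at 12.7 to 28.6 FPKM in the 8 libraries, and Xist at 0 to 0.0199.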
